A study of Mus musculus with 4 samples.

Results

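The genes described here encode the subunits of the mitochondrial respiratory chain and ATP synthase that are made from nuclear DNA. They were taken as the protein-coding entries on an autosome or the X chromosome whose symbol begins with Nduf plus a, b, c, s or v and a number (complex I), with Uqcr or is Cyc1 (complex III), with Cox4 to Cox8 (complex IV) or with Atp5 (complex V), plus Sdha, Sdhb, Sdhc and Sdhd (complex II) and Cycs (cytochrome c). This gave 88 of the 55599 entries: 38 for complex I, 4 for complex II, 9 for complex III, 1 for cytochrome c, 18 for complex IV and 18 for complex V. Atp5o has 2 entries among the 88, and the symbol pattern does not take Ndufab1, the acyl carrier subunit of complex I. Ndufa4 is listed with complex I by its symbol although its protein is now assigned to complex IV.

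The RNA came from neurospheres, free-floating balls of neural stem and progenitor cells, that were cultured from the cortex of C57BL/6 mice at embryonic day 12.5 and used at passage 3. There were 2 wild-type (WT) libraries and 2 libraries of cells carrying a knockout of the long noncoding RNA gene LncBAR (LncBAR-KO, below KO). The labels do not give the deleted sequence, the sex of the embryos, or whether each library stands for its own embryo or culture. P-values therefore measure the spread between libraries, part or all of which can be technical. LncBAR itself was matched to no entry by name, and its level was not analysed here. Values of the 4 libraries are always given in the order WT replicate 1, WT replicate 2, KO replicate 1, KO replicate 2.

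Total counts were between 17244057 and 18280445 per library. Xist had 36766, 31563, 7 and 4 counts and 4 Y-linked genes together had 0, 0, 3962 and 4449, so the genotype and the sex chromosomes cannot be told apart in any difference below. All 8 neural stem and radial glia markers were above 1 FPKM (fragments scaled by gene length and library size, as deposited). Their summed level was 2647, 2753, 2846 and 2957 FPKM. All 5 oligodendrocyte lineage markers and all 4 astrocyte markers also had a mean of at least 1 FPKM. The oligodendrocyte lineage list summed to 189, 199, 198 and 194 FPKM, and the astrocyte list to 45.9, 36.9, 39.5 and 30.3 FPKM. The astrocyte sum was highest in WT replicate 1 and lowest in KO replicate 2, and that order was not tested. A mean of at least 1 FPKM was also reached by 3 of 4 dorsal telencephalon markers (46.4 to 51.0 FPKM for the list) and 2 of 6 neuronal markers (47.4 to 48.6 FPKM). None of 5 microglial, 4 endothelial, 5 mesenchymal and 4 erythroid markers reached 1 FPKM, and each of these lists summed to at most 0.853 FPKM in a library. Of 5 muscle markers 1 reached 1 FPKM, and the list summed to 1.38 to 1.95 FPKM. In bulk RNA, fewer cells of a type and less RNA per cell cannot be told apart.

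The respiratory chain passes electrons from NADH (complex I) and succinate (complex II) through ubiquinone, complex III and cytochrome c to oxygen at complex IV. Complexes I, III and IV pump protons across the inner mitochondrial membrane, and complex V, the ATP synthase, uses the returning protons to make ATP. Complexes I, III, IV and V combine nuclear subunits with a few made from the mitochondrial genome, while complex II is nuclear only. Neural stem cells in culture also draw on glycolysis, and neuronal differentiation is known for a shift towards oxidative phosphorylation.

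Many genes of this group are known to share binding sites for the nuclear respiratory factor NRF1, for GABP, an ETS family factor, and for YY1. RefSeq promoters (GRCm38.p6, 250 bases before to 50 after a start) were found for 70 of the genes, 75 promoters in all, and were searched on both strands. The letters of an NRF1 site, GCGCA and GCGC with any 1 base between them, stood in 18 of the 75 promoters (24%) and in 4.60% of all 32851 promoters in the RefSeq table. CCGGAAG, the ETS/GABP letters, stood in 17 (22.7%) against 8.86%, and AANATGGCG, the YY1 letters, in 10 (13.3%) against 2.38%. Of the 70 genes, 38 had at least 1 of the 3 motifs. A match describes the sequence and does not show binding. The 5 stretches below are the ones with an NRF1 match that lie before the RefSeq start and wholly outside the gene model of the deposited table. They are printed because they show the same element in genes of complexes I, II, IV and V, with the match in capitals and at most 25 bases on each side, 5′ to 3′ in the direction of the gene. They lie at chr17:56717677-56717736 on the plus strand and, on the minus strand, at chr4:123718250-123718309, chr9:50603894-50603953, chr5:115349041-115349145 and chr11:115420026-115420085.
Ndufa11: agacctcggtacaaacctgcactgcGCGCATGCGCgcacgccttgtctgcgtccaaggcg
Ndufs5: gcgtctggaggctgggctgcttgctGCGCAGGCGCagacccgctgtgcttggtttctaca
Sdhd: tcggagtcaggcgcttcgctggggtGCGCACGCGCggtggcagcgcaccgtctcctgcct
Cox6a1: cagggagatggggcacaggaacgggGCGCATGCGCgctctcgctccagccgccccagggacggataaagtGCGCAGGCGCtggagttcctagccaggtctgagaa
Atp5h: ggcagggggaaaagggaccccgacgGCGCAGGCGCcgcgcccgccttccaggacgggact
Cox6a1 holds 2 matches and the others 1 each. Ndufb4 and Sdha, whose stretches overlap their gene models and are not printed, hold 3 matches each before their RefSeq start.

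Most of the group was strongly transcribed in these neurospheres. Of the 88 entries, 81 had a mean of at least 1 FPKM over the 4 libraries and were tested. Their median level was 65.7 FPKM, against 7.45 FPKM for the 12997 genes tested. By complex, the median level of the tested genes was 49.5 FPKM for complex I, 78.2 for complex II, 97.7 for complex III, 104 for complex IV and 66.7 for complex V. The group took 1.11%, 1.20%, 1.22% and 1.32% of all counts, lowest in WT replicate 1 and highest in KO replicate 2. Cox8a and Atp5b stood at the top, with means of 606 and 434 FPKM.

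**Figure D1:**
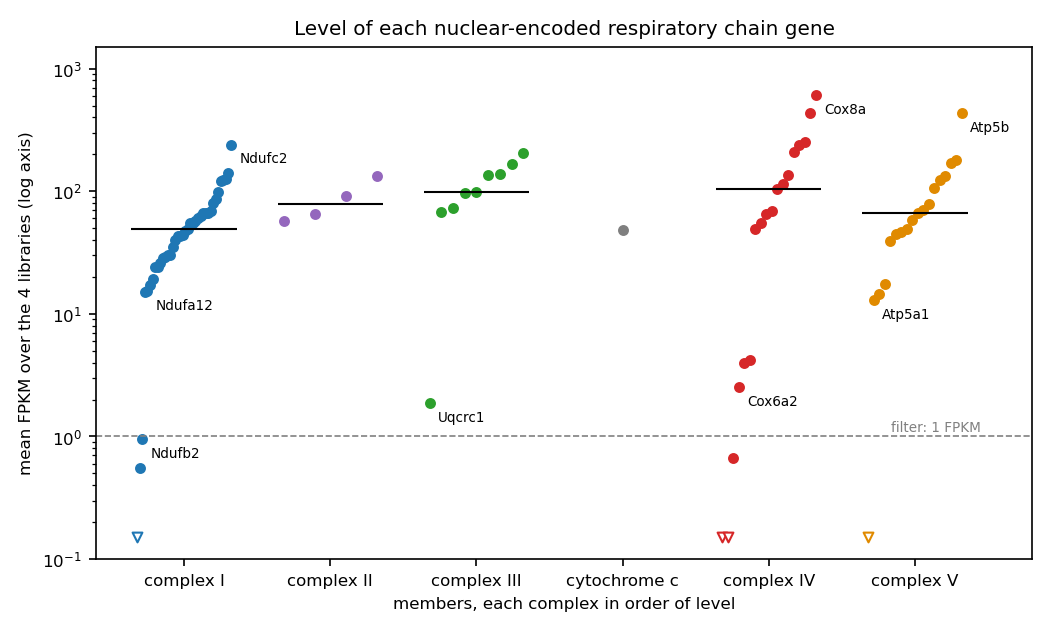
Mean deposited FPKM over the 4 libraries (log axis) of each of the 88 genes, by complex and in order of level. Black lines mark the median of the tested genes, the dashed line the filter of 1 FPKM, and open triangles the 4 entries listed at 0 in every library. Cox8a and Atp5b are highest, and Uqcrc1, Cox6a2, Cox7a1 and Cox4i2 are the tested genes lowest in level.

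The comparison of KO with WT asks whether loss of LncBAR goes with a different level of these genes. No gene of the group passed edgeR's quasi-likelihood test at an adjusted p of 0.05 (0 of 81), while 0.0692% of all 12997 genes tested did, 0.0385% higher and 0.0308% lower in KO. The adjusted p-values in edgeR ran from 0.811 to 0.994. DESeq2 also called 0, against 0.0923% of all genes, and limma on log2(FPKM + 1) called 0, against 0.0308%. The authors' deposited table lists 0 of 84 respiratory chain entries at an adjusted p under 0.05, against 0.0490% of all its genes with a value. At an unadjusted p of 0.05 edgeR had 20 of 81, against 5.92% of all genes, DESeq2 18, against 2.82%, and limma 11, against 5.19%. In edgeR all 20 were higher in KO and 0 lower, a direction in which 2.98% of all genes lay at that p, against 2.95% lower.

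The sign was nearly uniform. The log2 fold change, KO over WT, was positive for 80 of 81 genes, against 51.0% of all genes tested. Ndufs7, an iron-sulfur subunit of complex I, was the exception at -0.04 ± 0.08 (± SE). The median over the 81 genes was 0.16, a 1.12-fold difference, and the median over all genes 0.003. In 54 of 81 genes (66.7%) both KO libraries stood above both WT libraries in CPM (counts after division by a library size corrected with TMM), against 18.1% of all genes. In 0 of 81 both KO libraries stood below both WT libraries, against 18.7%. These traits were not particular to the respiratory chain. Of 80 cytosolic ribosomal protein genes, 77 were tested and 75 were positive, with a median of 0.19. In 67 of the 77 (87.0%) both KO libraries stood above both WT libraries, and 37 had an unadjusted p under 0.05 in edgeR. The differences in the 81 respiratory chain genes were small. Their 95% interval lay within a 2-fold difference in either direction for 79 of 81, and the SE had a median of 0.0912. Genes of one pathway are not independent of each other.

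**Figure D2:**
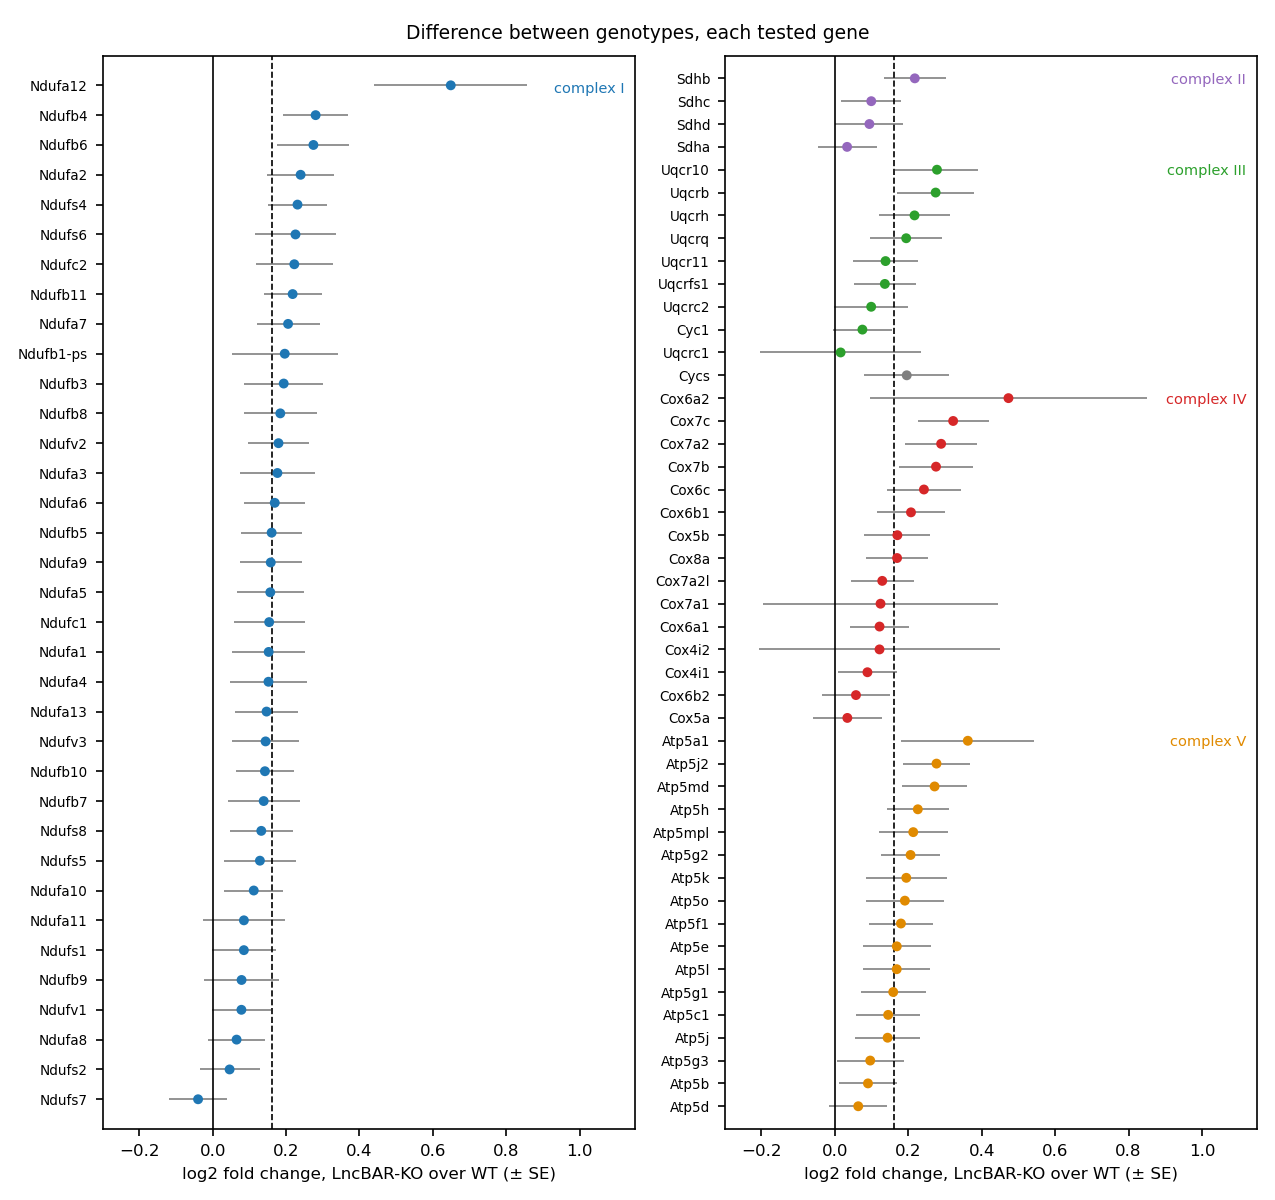
Log2 fold change of KO over WT with its SE from edgeR for each of the 81 tested genes, 2 libraries a genotype, complex I on the left and complexes II to V with cytochrome c on the right. The solid line is no difference and the dashed line the median of the 81 genes, 0.16. 80 of 81 points lie right of the solid line, and none passed the adjusted test.

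The libraries of one genotype differed from each other by about as much as the genotypes did. Relative to the mean of the 4 libraries, the median log2 CPM of the 81 genes was -0.13, -0.02, 0.01 and 0.15. WT replicate 1 was the lowest library for 70 genes (86.4%, against 26.1% of all genes), and KO replicate 2 the highest for 73 (90.1%, against 31.2%). WT replicate 2 lay above WT replicate 1 by a median of 0.12, and KO replicate 2 above KO replicate 1 by 0.13. WT replicate 2 and KO replicate 1 differed little, at -0.02 and 0.01. Without KO replicate 2 the median log2 fold change was 0.08, with 72 of 81 genes positive. It was 0.11 without WT replicate 1 (77 positive), 0.22 without WT replicate 2 (80 positive) and 0.23 without KO replicate 1 (78 positive).

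**Figure D3:**
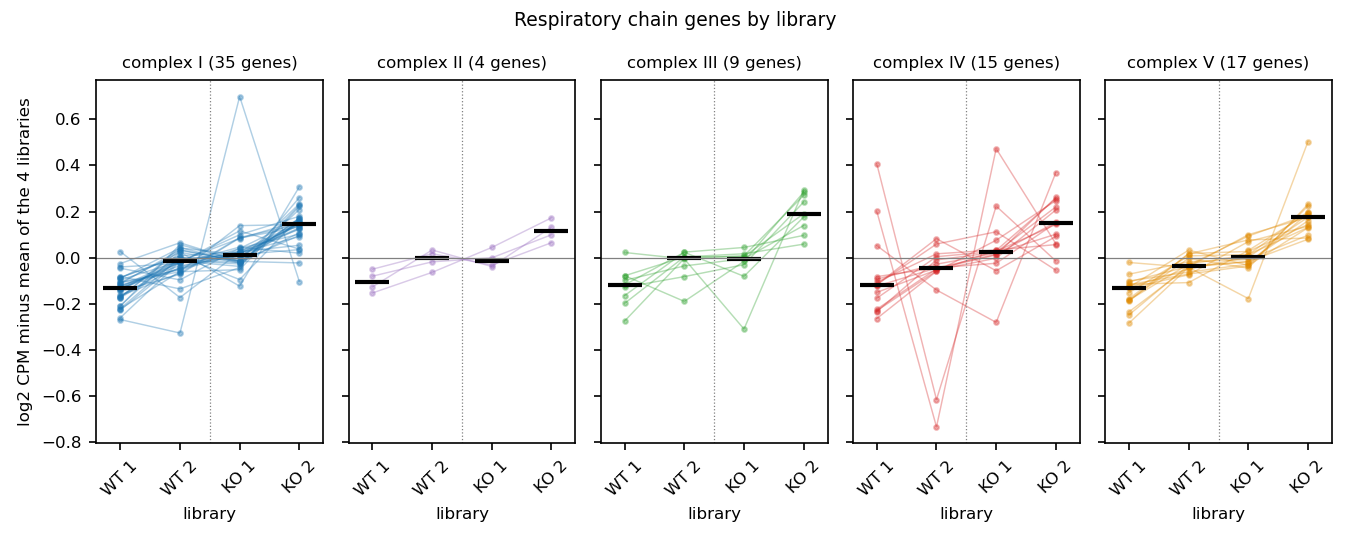
Log2 CPM of each tested gene minus its mean over the 4 libraries, by complex; thin lines join the values of 1 gene and black bars are the median of the genes in a library. In complexes I to V the black bar is lowest in WT replicate 1 and highest in KO replicate 2.

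The same order of libraries appeared in other short or abundant transcripts. The 80 cytosolic ribosomal protein genes took 3.80%, 3.90%, 4.11% and 4.56% of all counts, and the mitochondrial genome 3.15%, 3.28%, 3.31% and 3.87%. All genes under 1.5 kb of length in the table had a median log2 fold change of 0.09 (2216 genes), and all genes of 1.5 kb or more -0.004. Respiratory chain genes under 1.5 kb had a median of 0.17 (39 genes), and those of 1.5 kb or more 0.16 (42 genes). The longer respiratory chain genes had a median close to that of the shorter ones. The sets of 1.5 kb or more were not matched in length. Their median length was 2593 bases for the respiratory chain and 4740 for all genes. Among all genes of 1.5 kb or more, the median log2 fold change fell with length. It was 0.058, 0.023 and -0.041 in bins with median lengths of 2028, 3671 and 7406 bases. Whether respiratory chain genes differ from other genes of the same length was not tested by this split. With the trend on gene length removed from each library, the median of the group was 0.10, with 74 of 81 positive and 7 at an unadjusted p of 0.05, against 4.46% of all genes in that fit.

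Complex I takes electrons from NADH. Its 7 core subunits of nuclear origin carry the flavin and the iron-sulfur clusters, and its accessory subunits stabilise the structure. Of 38 entries, 35 were tested and 34 were positive, against 51.0% of all genes. In 21 (60.0%) both KO libraries stood above both WT libraries, against 18.1% of all genes. The median log2 fold change of the 35 was 0.16, with 0.08 over 6 core subunits and 0.16 over 29 accessory subunits. Without KO replicate 2 the median of the 35 was 0.08. Ndufc2, Ndufa2 and Ndufa4 were the most abundant. Ndufc2, a membrane arm subunit, had 203, 238, 236 and 281 FPKM. Ndufa2, a small subunit of the matrix arm, had 119, 138, 148 and 157 FPKM. Ndufa4 had 108, 131, 124 and 142 FPKM. For Ndufa2 the KO libraries were above the WT libraries, while for Ndufc2 and Ndufa4 the genotypes overlapped.

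Ndufb4, an accessory subunit of the membrane arm (chr16:37647170-37654453 in mm10), had the smallest p of complex I. Its level was 25.6, 28.8, 33.0 and 33.3 FPKM, or 27.2 ± 2.24 in WT and 33.1 ± 0.260 in KO (SD, n = 2 each). Both KO libraries were above both WT libraries, and the log2 fold change was 0.28 ± 0.09 (edgeR adjusted p = 0.811). 2 X-linked genes belong to complex I. Ndufb11 had 111, 117, 131 and 136 FPKM and Ndufa1 62.9, 68.1, 74.8 and 71.4 FPKM, both with the KO libraries above the WT libraries. The third X-linked gene of the group, Cox7b of complex IV, had 87.7, 99.4, 103 and 124 FPKM and the same order.

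Ndufa12, an accessory subunit that sits beside the electron input arm (chr10:94198720-94221443), was among the lowest complex I genes in level and had the largest fold change of the group. Its level was 12.1, 11.7, 23.7 and 13.7 FPKM, so that KO replicate 1 stood apart and KO replicate 2 was near the WT libraries. The log2 fold change was 0.65 ± 0.21 (edgeR adjusted p = 0.811). Gm15920, a processed pseudogene that covers 89.3% of the Ndufa12 coding sequence at up to 99.5% identity, had 664, 678, 586 and 822 counts where Ndufa12 had 343, 319, 652 and 387. KO replicate 1 was the lowest library for the pseudogene and the highest for the gene. Summed, the pair had 1007, 997, 1238 and 1209 counts and a log2 fold change of 0.28 ± 0.08 (edgeR adjusted p = 0.814). The sum was higher in both KO libraries, and the gap between them was gone. The sources used here do not say how reads matching both loci were assigned. In edgeR, Ndufa12 passed the adjusted test without WT replicate 1 (log2 fold change 0.68, adjusted p = 0.00544), without WT replicate 2 (0.62, adjusted p = 0.0228) and without KO replicate 2 (1.00, adjusted p = 0.0106). Calls over all genes were also more frequent in these fits, at 0.662%, 0.392% and 0.115% in that order. Without KO replicate 1 the log2 fold change of Ndufa12 was 0.20 and did not pass, while 0.169% of all genes did.

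**Figure D4:**
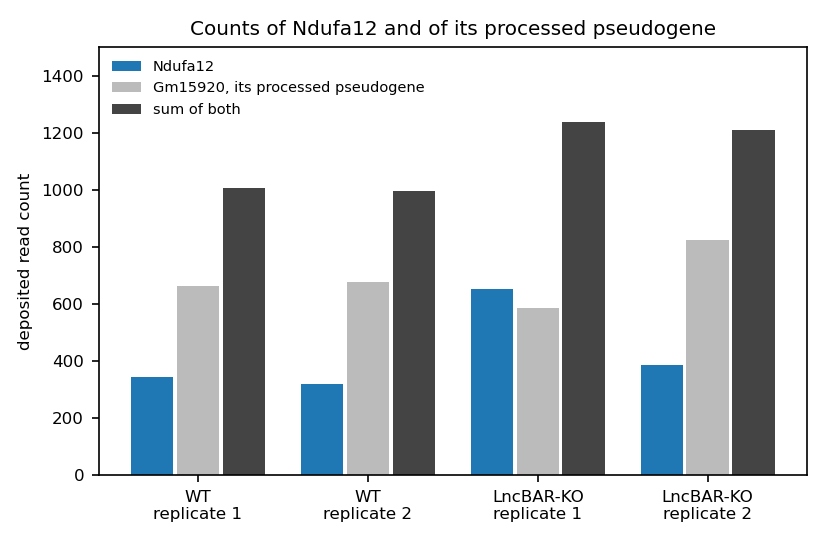
Deposited read counts of Ndufa12, of its processed pseudogene Gm15920 and of their sum in each of the 4 libraries. Ndufa12 is highest and Gm15920 lowest in KO replicate 1, and the sums are 1007, 997, 1238 and 1209.

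Ndufs3 could not be measured. This core subunit of the quinone arm (chr2:90894634-90904827) was listed at 0 in every library, although complex I does not assemble without it. Gm12251, a processed pseudogene of Ndufs3, had 99, 79, 83 and 99 counts. An unnamed minus-strand locus on an assembly patch, named in the table as CHR_MG191_PATCH, at patch positions 90894628 to 90906301, had 47, 357, 419 and 333 counts, lowest in WT replicate 1. It was picked after its values were seen, and whether its reads come from Ndufs3 was not tested. Below the filter lay also Ndufb2, a membrane arm subunit, at 0.993, 0.785, 1.00 and 0.997 FPKM, and Ndufa4l2, a relative of Ndufa4 known as a hypoxia-induced gene, at 0.657, 0.472, 0.782 and 0.305 FPKM.

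Complex II, succinate dehydrogenase, joins the respiratory chain to the citric acid cycle. All 4 subunits were tested and 4 were positive, against 51.0% of all genes. In 2 (50.0%) the KO libraries stood above the WT libraries, against 18.1% of all genes. The median log2 fold change of the 4 was 0.10. This median was 0.03 without KO replicate 2, 0.04 without WT replicate 1, 0.15 without WT replicate 2 and 0.16 without KO replicate 1. Sdhb, the iron-sulfur subunit, had 58.6, 62.6, 67.3 and 74.2 FPKM, lowest in both WT libraries, with a log2 fold change of 0.22 ± 0.08 (edgeR adjusted p = 0.811). Sdhc, a membrane anchor, had 53.5, 56.1, 56.7 and 61.3 FPKM and 0.10 ± 0.08 (edgeR adjusted p = 0.852), with 0.05 without KO replicate 2 and 0.15 without KO replicate 1. Sdhd, the other membrane anchor, had 121, 135, 128 and 146 FPKM, and Sdha, the flavoprotein, 87.1, 91.7, 88.5 and 95.4 FPKM. In Sdhd and Sdha the genotypes overlapped, with WT replicate 2 above KO replicate 1.

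Complex III passes electrons from ubiquinol to cytochrome c. All 9 genes were tested and positive, against 51.0% of all genes with a positive sign. In 7 (77.8%) the KO libraries stood above the WT libraries, against 18.1% of all genes. The median log2 fold change of the 9 was 0.14. This median was 0.07 without KO replicate 2, 0.22 without WT replicate 2 and 0.29 without KO replicate 1. Uqcrb, which binds near the quinone site, had 91.4, 85.0, 95.7 and 119 FPKM and a log2 fold change of 0.27 ± 0.10 (edgeR adjusted p = 0.811). Uqcr10, a small accessory subunit, had 166, 202, 203 and 246 FPKM and 0.28 ± 0.11 (edgeR adjusted p = 0.811). In both genes KO replicate 2 stood above the other libraries, and WT replicate 2 and KO replicate 1 of Uqcr10 nearly met. The log2 fold change of Uqcrb was 0.12 without KO replicate 2 and 0.42 without KO replicate 1. That of Uqcr10 was 0.14 without KO replicate 2, 0.15 without WT replicate 1 and 0.42 without WT replicate 2. Of the catalytic subunits, Uqcrfs1, the Rieske iron-sulfur protein, had 154, 162, 165 and 184 FPKM and Cyc1, cytochrome c1, 90.4, 96.1, 96.8 and 100.4 FPKM. Uqcr11 had 123, 141, 143 and 149 FPKM. Uqcrc1, one of the core proteins, was listed at 1.87, 1.85, 1.49 and 2.28 FPKM, while its partner Uqcrc2 had 61.7, 68.3, 63.4 and 76.4 FPKM. The reason for the low level of Uqcrc1 was not tested.

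Cycs encodes cytochrome c, the soluble carrier between complexes III and IV that also acts in apoptosis. It had 41.2, 49.3, 46.4 and 57.7 FPKM, with WT replicate 2 above KO replicate 1. Its log2 fold change was 0.20 ± 0.12 (edgeR adjusted p = 0.831). It was 0.03 without KO replicate 2, 0.08 without WT replicate 1, 0.33 without WT replicate 2 and 0.34 without KO replicate 1.

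Complex IV, cytochrome c oxidase, has catalytic subunits from the mitochondrial genome, and the nuclear genes encode the subunits around them. Of 18 entries 15 were tested and 15 were positive, against 51.0% of all genes. In 10 (66.7%) the KO libraries stood above the WT libraries, against 18.1% of all genes. The median log2 fold change of the 15 was 0.17. This median was 0.11 without KO replicate 2 and 0.05 with the gene length trend removed. Cox7c (chr13:86044816-86046904), a small membrane subunit, had the smallest p of the whole group. Its level was 171, 197, 216 and 246 FPKM, or 184 ± 19.0 in WT and 231 ± 20.7 in KO (SD, n = 2 each), with no overlap of the genotypes. The log2 fold change was 0.32 ± 0.10 (edgeR adjusted p = 0.811). Pseudogene copies of Cox7c, chiefly Gm12338, had 356, 449, 469 and 525 counts, and the sum with them had a log2 fold change of 0.32. Cox7a2 had 96.1, 109, 115 and 136 FPKM and 0.29 ± 0.10 (edgeR adjusted p = 0.811), again without overlap, and 0.17 without KO replicate 2. The 3 most abundant genes were Cox8a with 553, 586, 609.7 and 677 FPKM, Cox6a1 with 407, 427, 441 and 470.2 FPKM and Cox6b1 with 226, 243, 251 and 293 FPKM.

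Several complex IV subunits have isoforms, and the muscle, lung and germ-line types were low except Cox6b2. Cox4i1 had 221, 241, 244 and 249.6 FPKM and the lung-type, hypoxia-responsive Cox4i2 5.34, 2.62, 4.71 and 4.02 FPKM. Cox4i2 made up 2.36%, 1.07%, 1.90% and 1.59% of the 2 isoforms. The heart and muscle form Cox6a2 had 2.77, 1.43, 3.36 and 2.53 FPKM, which is 0.676%, 0.335%, 0.756% and 0.536% of Cox6a. The muscle form Cox7a1 had 4.03, 3.54, 3.20 and 5.09 FPKM, or 1.77%, 1.45%, 1.27% and 1.74% of the family with Cox7a2 and Cox7a2l. Cox7a2l, known as a factor in the joining of complexes III and IV, had 128, 132, 133 and 152 FPKM and Cox7a2 made up 42.2%, 44.6%, 45.8% and 46.5% of the family, more in both KO libraries than in both WT libraries. Cox8b, another muscle form, was at 0.307, 1.12, 0.793 and 0.463 FPKM, and Cox8c and Cox7b2 were listed at 0 in every library. Cox6b2, known for expression in testis, had 60.0, 68.1, 70.5 and 63.3 FPKM and 21%, 21.9%, 21.9% and 17.8% of Cox6b. Its share was lowest in KO replicate 2, and the genotypes overlapped. None of these shares was tested.

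Complex V is the ATP synthase, with a catalytic F1 head, a rotating c ring and a peripheral stalk. Of 18 entries 17 were tested and 17 were positive, against 51.0% of all genes. In 14 (82.4%) the KO libraries stood above the WT libraries, against 18.1% of all genes. The median log2 fold change of the 17 was 0.18, or 0.08 without KO replicate 2. By part of the enzyme the median was 0.15 for the head and central stalk (5 genes), 0.16 for the c ring (3), 0.19 for the peripheral stalk (4) and 0.21 for the membrane accessory subunits (5). Atp5md, a small membrane subunit, had 37.6, 43.3, 47.6 and 50.5 FPKM and a log2 fold change of 0.27 ± 0.09 (edgeR adjusted p = 0.811). Atp5j2, subunit f, had 32.4, 37.8, 41.2 and 44.3 FPKM and 0.28 ± 0.09 (edgeR adjusted p = 0.811). In both the KO libraries were above the WT libraries, and without WT replicate 1 the log2 fold changes were 0.18 and 0.17. In the head, Atp5b, the catalytic beta subunit, had 411, 429, 431 and 467 FPKM and Atp5c1, the gamma subunit, 166, 175, 177 and 202 FPKM. Atp5a1, the alpha subunit, is present in the enzyme in equal number with beta but was listed at 10.3, 12.3, 11.1 and 18 FPKM, highest in KO replicate 2. The reason for that gap was not tested. The second entry named Atp5o was listed at 0 in every library, and all of its exonic bases are also covered by other genes, among them Donson.

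The c ring subunit is made from 3 genes whose mature proteins are identical and whose import signals differ. Atp5g3 had 154, 173, 165 and 186 FPKM, Atp5g2 111, 116, 128 and 135 FPKM and Atp5g1 12.7, 14.6, 15.2 and 15.4 FPKM. Their shares of the family were 55.4%, 57.0%, 53.5% and 55.3% for Atp5g3, 40.0%, 38.2%, 41.6% and 40.1% for Atp5g2 and 4.57%, 4.81%, 4.93% and 4.57% for Atp5g1. The order of the 3 genes was the same in all 4 libraries. Gm10039, a processed pseudogene of Atp5g1, had 540, 433, 518 and 641 counts against 1126, 1248, 1306 and 1360 for the gene, so the level of Atp5g1 is uncertain.

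Pseudogene copies bear on many of these values. Of the genes, 22 had at least 1 annotated pseudogene with 95% identity over at least 100 bases and 50% of the coding sequence, 44 copies in all, and for 8 the copies held over 5% of the summed counts. Beside Ndufa12, Ndufs3, Cox7c and Atp5g1 these were Atp5l (24.2%), Atp5h (16.2%), Uqcrb (6.5%) and Uqcr11 (5.53%). With counts of gene and copies summed, 0 of 82 entries passed in edgeR, against 0.0694% of all genes, 81 were positive and the median was 0.16. For the 60 tested genes without such copies the median was 0.15 and 59 were positive. These 60 include Ndufb1-ps, which has no annotated coding transcript and was not searched for copies. Copies annotated as coding genes were left out of these counts and sums, and 2 of them held over 5% of the counts of the pair. Gm10053, which covers the whole Cycs coding sequence at up to 99.9% identity, had 382, 381, 345 and 452 counts, 11.7% of the pair. Gm11273, which covers that of Cox5b at up to 99.2% identity, had 176, 177, 187 and 227 counts, 8.98% of the pair. The levels of Cycs and Cox5b are uncertain to that extent. Libraries carried no strand information, which mixes reads of genes that overlap on opposite strands. Of the 88 entries, 13 had over 10% of their exonic bases covered by another gene on either strand. For Ndufb9 (19.5%) and the second Atp5o entry (100%) all of these bases were covered by genes on the same strand.

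Genes that build or serve the complexes were compared by lists, which hold no respiratory chain subunit of nuclear origin. No gene of any list passed the adjusted test in edgeR. The 13 subunits made from the mitochondrial genome were all positive, against 51.0% of all genes, with a median log2 fold change of 0.16. In 3 of 13 (23.1%) the KO libraries stood above the WT libraries, against 18.1% of all genes. An unadjusted p under 0.05 in edgeR was found for 1 of 13, against 5.92% of all genes. Their library medians were -0.11, -0.09, -0.05 and 0.20, and without KO replicate 2 the median log2 fold change was 0.02. mt-Co1, the catalytic subunit of complex IV, had 8986, 9425, 9614 and 11010.0 FPKM and mt-Co3 30.0, 30.5, 34.9 and 36.9 FPKM, with a log2 fold change of 0.24 ± 0.10 (edgeR adjusted p = 0.811). Why mt-Co3 was listed so far below mt-Co1 was not tested.

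Over all genes tested, 51.0% had a positive log2 fold change. Of the assembly factors of complex I, 13 of 14 were positive, with a median of 0.14, which was 0.00018 without KO replicate 2. Ndufaf3, which acts early in the assembly of the quinone arm, had 9.54, 8.92, 12.2 and 12.8 FPKM and 0.43 ± 0.12 (edgeR adjusted p = 0.811), higher in both KO libraries. Ndufaf8 had 19.2, 18.4, 20.7 and 23.6 FPKM. Those of complex II had 4 of 4 positive and a median of 0.11; Sdhaf2, which helps flavin attach to Sdha, had 3.42, 3.47, 3.70 and 3.89 FPKM and Sdhaf4 16, 14.9, 17.1 and 16.2 FPKM. For complex III 3 of 6 were positive with a median of 0.04, and Uqcc2 had 55.9, 56.2, 63.7 and 68.9 FPKM, higher in both KO libraries. For complex IV 9 of 16 were positive with a median of 0.03; Cox14 had 25.5, 25.9, 29.5 and 29.9 FPKM, higher in both KO libraries, and Coa3 45.5, 50.1, 51.7 and 46.7 FPKM with overlap. For complex V 2 of 3 were positive with a median of 0.04, and Tmem70 had 28.4, 31.9, 32.4 and 32.9 FPKM. The assembly factors of complexes III, IV and V had medians nearer to that of all genes, 0.003, than the subunits of the same complexes. That contrast was not tested. The median gene length of the factors was 3434 bases for complex III and 2874 for complex IV, against 1363 and 1108 for the subunits. For complex V it was 2185 against 2181.

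Known regulators of mitochondrial biogenesis lay on both sides of 0. Of 14 genes, among them Ppargc1a, Nrf1, Gabpa, Esrra, Yy1 and Tfam, 5 were positive, the median was -0.05, and 0 had an unadjusted p under 0.05. Nrf1, whose site is printed above, had 4.39, 4.75, 4.83 and 4.41 FPKM, Gabpa 17.7, 17.8, 16.3 and 17.2 FPKM and Ppargc1a, a coactivator of both, 7.08, 6.56, 6.54 and 6.64 FPKM. Yy1 had 22.5, 22, 24.6 and 22.9 FPKM, and Polg, the mitochondrial DNA polymerase, 20.0, 22.2, 19.6 and 18.3 FPKM. Nrf1, Gabpa and Ppargc1a fall outside the rule for named genes and were chosen for the motif search. Enzymes of the citric acid cycle had 9 of 13 positive and a median of 0.08; Suclg1 had 19.6, 21.1, 21.3 and 24.1 FPKM. Mitochondrial import, taken as symbols that begin with Timm or Tomm, had 21 of 23 positive and a median of 0.09. Timmdc1, an assembly factor of complex I, matches that pattern and is counted in both lists. Timm8a1 had 15.5, 17.8, 19.6 and 22.9 FPKM and Timm8b 82.6, 92.6, 93.9 and 119.6 FPKM, both higher in the 2 KO libraries. Carriers and channels had 6 of 6 positive and a median of 0.11; Slc25a5, an ADP/ATP carrier, had 446, 509, 476 and 559 FPKM and Vdac3 24.7, 25.2, 26.1 and 30.1 FPKM.

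**Figure D5:**
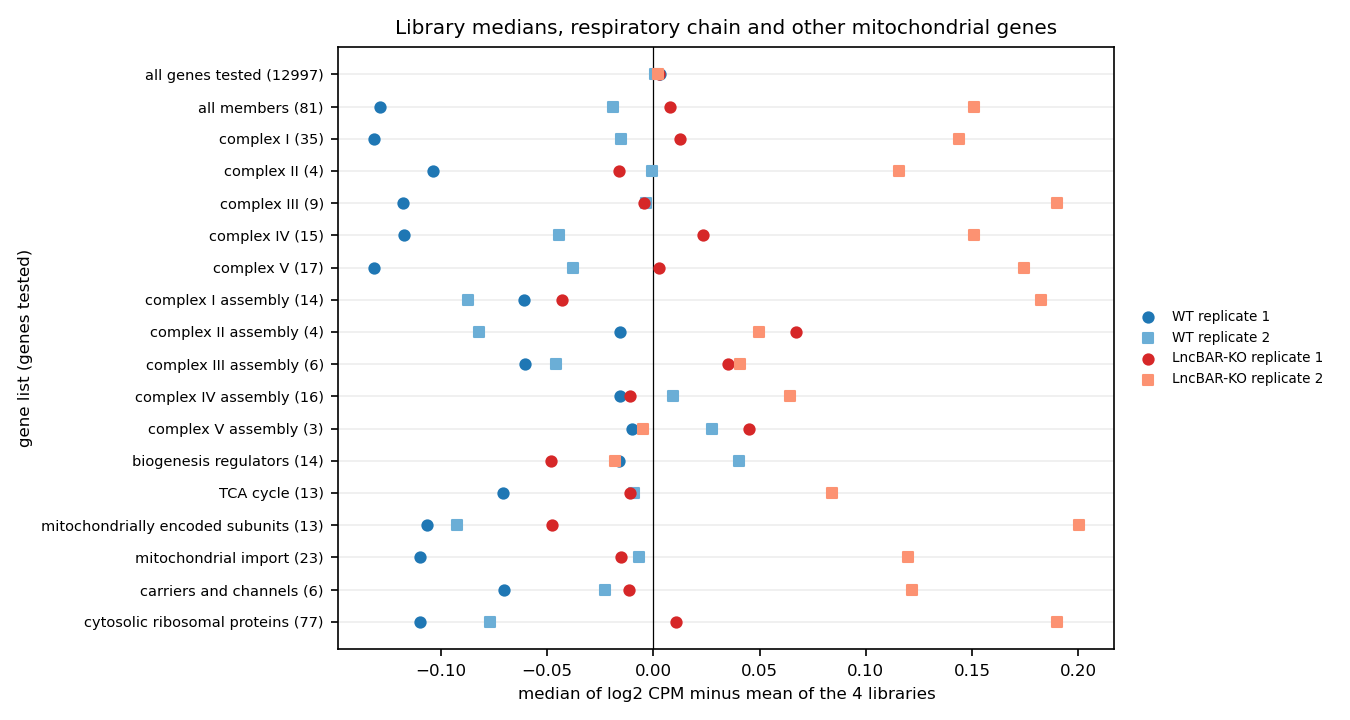
Median over the genes of a list of log2 CPM minus the mean of the 4 libraries, for each library; numbers in brackets are genes tested. In all 5 complexes and in 7 of the 10 other mitochondrial lists (complex I, III and IV assembly, TCA cycle, mitochondrially encoded subunits, mitochondrial import, carriers and channels) KO replicate 2 lies farthest right, as it does for cytosolic ribosomal proteins, while the medians of all genes meet near 0.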

How the data were processed

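RNA-seq of 4 neurosphere libraries was used, 2 WT and 2 LncBAR-KO, grouped by their titles. The submitters' processing notes name TopHat2 2.1.1, Cufflinks 2.2.1, cutadapt 1.16 and the mm10 build. Not given in the sources used here are the tool that counted reads and its treatment of reads matching several genes. The authors deposited whole-number counts per gene and, per the file headers, FPKM per gene and library. The authors also deposited a comparison of KO with WT holding a mean signal per genotype (normalised counts), a log2 fold change, and a p-value with its adjusted form per gene.

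Counts were tested with edgeR 4.0.16's quasi-likelihood test (R 4.3.3), TMM scaling, genotype alone, over 12997 genes with a mean FPKM of at least 1. P-values were two-sided, adjusted by Benjamini-Hochberg over these genes, with 0.05 as threshold. SE is the size of the log2 fold change over the square root of F, with 2 residual and 8.39 prior degrees of freedom. Counts of any 2 libraries differed beyond counting noise (chi-square of 6.61 to 14.8 per degree of freedom). Only the edgeR test was tried on simulated counts, with genes drawn independently. The simulation held no length trend and no pseudogene copies, and its outcome is not given here. Pseudogene copies were found with blastn 2.17.0 against GENCODE M21 transcripts, and promoters come from RefSeq (GRCm38.p6).

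Genes given with a fold change and test are the 2 of smallest p in each complex and Cycs. Genes given by level are the 3 highest and the lowest tested of each complex, isoform families, X-linked genes, genes below the filter and, per companion list, the gene of smallest p and the one of highest FPKM. One gene that this rule names is not reported here. Ndufs7, Uqcrc2, Gm15920, Gm12338, Gm10039, Gm12251, Gm10053, Gm11273, Cox5b, Nrf1, Gabpa, Ppargc1a, mt-Atp6 and the patch locus were named after their values were seen. The genes, lists and tests were chosen with earlier results of these data known. No molecular identifiers were counted, so reads are not separate molecules. Alternatives were other scalings, filters, tests and pseudocounts (1 and 0.1), removal of sex chromosomes or of the gene length trend, a replicate block, each library left out, and, added after seeing the data, counts summed with copies.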

Additional observations from a re-analysis of the deposited data

How the results depend on the processing

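In edgeR, 0 respiratory chain genes passed under every alternative except the fits without WT replicate 1, without WT replicate 2 and without KO replicate 2, which each called Ndufa12 (range 0 to 1); these called 86, 51 and 15 of all genes, against 9 with all libraries. Such a fit takes the spread of a genotype left with 1 library from the other genotype. The median of all 81 genes was 0.08 to 0.23 with a library left out and 0.10 with the gene length trend removed. It was 0.16 to 0.17 under all other settings. By complex, leaving out a library gave 0.0780 to 0.227 in complex I, 0.0267 to 0.164 in complex II, 0.0742 to 0.285 in complex III, 0.110 to 0.239 in complex IV and 0.0828 to 0.265 in complex V, and removing the length trend gave 0.0547 in complex IV. Unadjusted p-values under 0.05 numbered 3 without WT replicate 1 (5.16% of all genes), 4 without KO replicate 2 (3.00%), 7 with the length trend removed (4.46%), 27 without WT replicate 2 (5.8%) and 44 without KO replicate 1 (12.1%), against 20 (5.92%).

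With a library left out, medians ran from 0.00018 to 0.277 for complex I assembly, 0.0711 to 0.133 for complex II, 0.0260 to 0.116 for complex III, -0.00644 to 0.0761 for complex IV and 0.00819 to 0.0644 for complex V assembly. They ran from -0.0777 to -0.0246 for biogenesis regulators, 0.0186 to 0.277 for mitochondrially encoded subunits, 0.0301 to 0.117 for the TCA cycle, 0.0410 to 0.167 for mitochondrial import and 0.0298 to 0.175 for carriers and channels. Without KO replicate 1, 1 mitochondrially encoded gene passed (mt-Atp6; range 0 to 1). The complex III assembly median (0.04) was 0.0492 without a filter, -0.0240 at 5 FPKM and 0.0273 without the length trend, and that of complex V assembly (0.04) was -0.0145 without the length trend. In counts not divided by length, isoform shares were 11% (Atp5g1), 31.8% (Atp5g2), 57.2% (Atp5g3), 0.887% (Cox4i2), 28.9% (Cox6b2), 0.681% (Cox7a1), 34.5% (Cox7a2) and 64.8% (Cox7a2l); means in FPKM were 4.72%, 40.0%, 55.3%, 1.73%, 20.6%, 1.56%, 44.8% and 53.7%. Division by length accounts for these shifts by construction; the cause of the others was not tested.

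Same-numbered libraries share only a number (correlation of deviations 0.0633 over 12997 genes). With the replicate block the median was 0.17, 79 of 81 were positive, 44 had an unadjusted p under 0.05 (12.3% of all genes) and 0 passed, while 24 of all genes did. Depth limits the genes of low level most. The SE reached 0.377 in complex IV, where the lowest mean of a tested gene was 2.52 FPKM. It reached 0.220 in complex III, where the lowest mean was 1.87 FPKM.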
